A study of Mus musculus with 13 samples.

Results

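The Hox cluster genes were taken as every protein-coding gene whose symbol is Hoxa, Hoxb, Hoxc or Hoxd followed by a number, and 39 of the 35498 genes with summed transcripts met that rule, of which 38 are described. Hox genes encode homeodomain transcription factors that give cells their position along the body axis. In the mouse they lie in 4 clusters, HoxA to HoxD, and within a cluster the genes with low numbers act towards the head and those with high numbers towards the tail. Adult cells such as fibroblasts keep part of this pattern as a "Hox code", which can be a trace of where in the body they came from. Whether this holds for the lines used here was not tested. Polycomb complexes keep silent Hox genes off, Trithorax complexes keep active ones on, and PBX, MEIS and PKNOX proteins (the TALE family) bind DNA together with Hox proteins.

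The libraries were 13 poly(A) RNA libraries of mouse lines labelled as melanoma, cultured with or without doxycycline, an antibiotic that switches on inducible constructs. The study placed sAC, the soluble adenylyl cyclase that produces the second messenger cAMP (mouse gene Adcy10), in chosen compartments of the cell. Lines 6, 7 and 16 are titled NLS and have 3 libraries each at t0 (no doxycycline), at t6 (6 h of it) and at t48 (48 h), with a nuclear compartment label at t6 and t48. Lines 10 and 12 are titled LacZ and have 2 libraries each at t0 and t48. The nuclear label also stands on the LacZ t48 libraries, which does not match their titles; the titles were followed. A genotype, a promoter for the constructs and the origin of each line were not given in the sources used here, and whether a line is 1 clone was not given either. Each line gave 1 library at a time. A p-value between label groups, with no term for the line, therefore measures the spread between lines that may also differ for other reasons.

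Depth was 18512887 to 22584628 estimated reads a library, and no pair of libraries of a group agreed within sampling noise (chi-square per degree of freedom of at least 7.11). Adcy10, whose induction the time labels stand for, did not follow them. It lay between 339.2 and 371.2 CPM in line 6, between 181.2 and 200.4 CPM in line 7 and between 0.671 and 1.22 CPM in line 16 at the 3 labelled times, and reached at most 0.167 CPM in the LacZ libraries. CPM is the depth-scaled count on TMM-normalized library sizes. Every direction given here is therefore a difference between libraries labelled with those times. Pigment-lineage markers were scarce in these lines labelled as melanoma, with the 7 genes summing to 3.24 to 5.86 CPM and Tyrp1 at 0 in every library. Fibroblast markers, with 6 to 8 of 8 genes detected in a group, summed to 9999 to 12166 CPM in NLS t0, 7792 to 9439 CPM in NLS t6, 15978 to 17071 CPM in NLS t48, 8070 to 8219 CPM in LacZ t0 and 7129 to 7517 CPM in LacZ t48. The sum was thus highest in the NLS t48 libraries, where several Hox genes were also highest, and it rested on the collagen genes Col1a1, Col1a2 and Col3a1. Of the other markers, Pdgfra (189 CPM at NLS t0, 203 at t6 and 167 at t48) and Pdgfrb (197, 212 and 193 CPM) were not highest at t48, Dcn was higher in LacZ t48 (13.4 CPM) than in NLS t48 (4.27 CPM), and Lum and Thy1 had at most 2 reads a library. At NLS t48 against LacZ t48, 5 of the 6 tested fibroblast markers were called higher (edgeR adjusted p below 0.05) and 1 lower. Over all tested genes 23.0% were called higher there and 22.2% lower. The part of the fibroblast markers in the Hox results was not tested. Leukocyte markers summed to 5.79 to 14.6 CPM, with Cd3e at 0 in every group. In such bulk libraries a change in the mix of cells and a change of RNA per cell cannot be told apart.

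The 250 bases before the start of 3 Hox genes are shown because these genes stand for 3 patterns described here. Hoxa5 was near 0 at NLS t0 and had reads in every NLS t48 library. Hoxb8 moved with both time labels and line titles, and Hoxb4 differed between NLS t48 and NLS t6. The sequences are from RefSeq on GRCm38.p6, on the gene's strand and 5′ to 3′, at chr6:52204588-52204837 (minus strand, Hoxa5), chr11:96281655-96281904 (plus strand, Hoxb8) and chr11:96318017-96318266 (plus strand, Hoxb4). Capitals mark matches, on either strand, to the 6 motifs listed after them.
Hoxa5: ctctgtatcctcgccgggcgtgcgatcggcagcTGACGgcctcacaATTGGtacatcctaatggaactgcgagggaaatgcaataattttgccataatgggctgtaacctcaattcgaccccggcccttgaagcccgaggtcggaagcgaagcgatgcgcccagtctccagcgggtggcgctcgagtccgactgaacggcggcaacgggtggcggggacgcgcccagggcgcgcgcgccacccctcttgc
Hoxb8: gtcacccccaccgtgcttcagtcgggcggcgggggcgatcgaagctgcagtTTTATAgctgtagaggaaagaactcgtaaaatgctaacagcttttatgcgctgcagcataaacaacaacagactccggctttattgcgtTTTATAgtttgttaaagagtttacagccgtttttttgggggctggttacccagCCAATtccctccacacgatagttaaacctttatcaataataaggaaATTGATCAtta
Hoxb4: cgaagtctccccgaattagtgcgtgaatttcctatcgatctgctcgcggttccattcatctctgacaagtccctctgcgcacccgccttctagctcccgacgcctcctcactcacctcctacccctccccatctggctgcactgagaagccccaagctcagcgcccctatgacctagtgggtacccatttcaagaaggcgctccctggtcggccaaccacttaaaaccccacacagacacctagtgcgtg

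The motifs searched were TGACGTCA (the CRE, bound by CREB proteins, which cAMP activates), its half-site TGACG, TGATNNAT (a joint PBX-HOX motif), TGACAG (the MEIS motif), TATAAA and CCAAT. The half-site TGACG lies inside TGACGTCA. In the Hoxa5 window TGACG matched at 217 to 213 bases before the start, and CCAAT matched on the opposite strand at 204 to 200. In the Hoxb8 window TGATNNAT matched on the opposite strand at 11 to 4 bases before the start, TATAAA on the opposite strand at 199 to 194 and at 110 to 105, and CCAAT on the gene's strand at 57 to 53. The Hoxb4 window held no match. Of the 32851 RefSeq windows of this length, 1.55% held TGACGTCA, 17.77% TGACG, 7.68% TGATNNAT, 15.86% TGACAG, 12.37% TATAAA and 33.85% CCAAT on either strand. Among the 24 Hox windows (22 of the 38 symbols were matched) the counts were 0 for TGACGTCA, 7 for TGACG, 4 for TGATNNAT, 2 for TGACAG, 4 for TATAAA and 14 for CCAAT. The GC content was 63.6% for Hoxa5, 44.4% for Hoxb8 and 58.0% for Hoxb4, against a median of 52.4% over all windows, and the CpG count was 28, 12 and 14 against a median of 6. A match describes letters only.

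All lines shared a HoxB code. The 10 HoxB genes (GRCm38 chromosome 11, 96194316 to 96368256, plus strand) held 98.99% of the 28346 reads on these Hox genes, and all 10 had at least 1 read. The 10 HoxA genes described (chromosome 6, 52162417 to 52260880) held 0.529%, with reads on 6 genes. The 9 HoxC genes (chromosome 15, 102921103 to 103036852) held 0.476%, with reads on 6, and the 9 HoxD genes (chromosome 2, 74668310 to 74765142) held 1 read in all, on Hoxd9. By library, HoxB made up 96.44 to 99.83% of the summed Hox TPM, a unit scaled by transcript length that allows levels to be compared between genes. No read fell on 15 members, namely Hoxa9, Hoxa10, Hoxa11 and Hoxa13, Hoxc11 to Hoxc13, and all HoxD genes other than Hoxd9. At this depth 0 reads in all libraries together allow a level of up to 0.0112 CPM (3 reads of the total, counting error only). The low-count filter kept 11 of them for testing: 8 HoxB genes (Hoxb3 to Hoxb9 and Hoxb13), Hoxa3, Hoxa5 and Hoxc6.

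**Figure D1:**
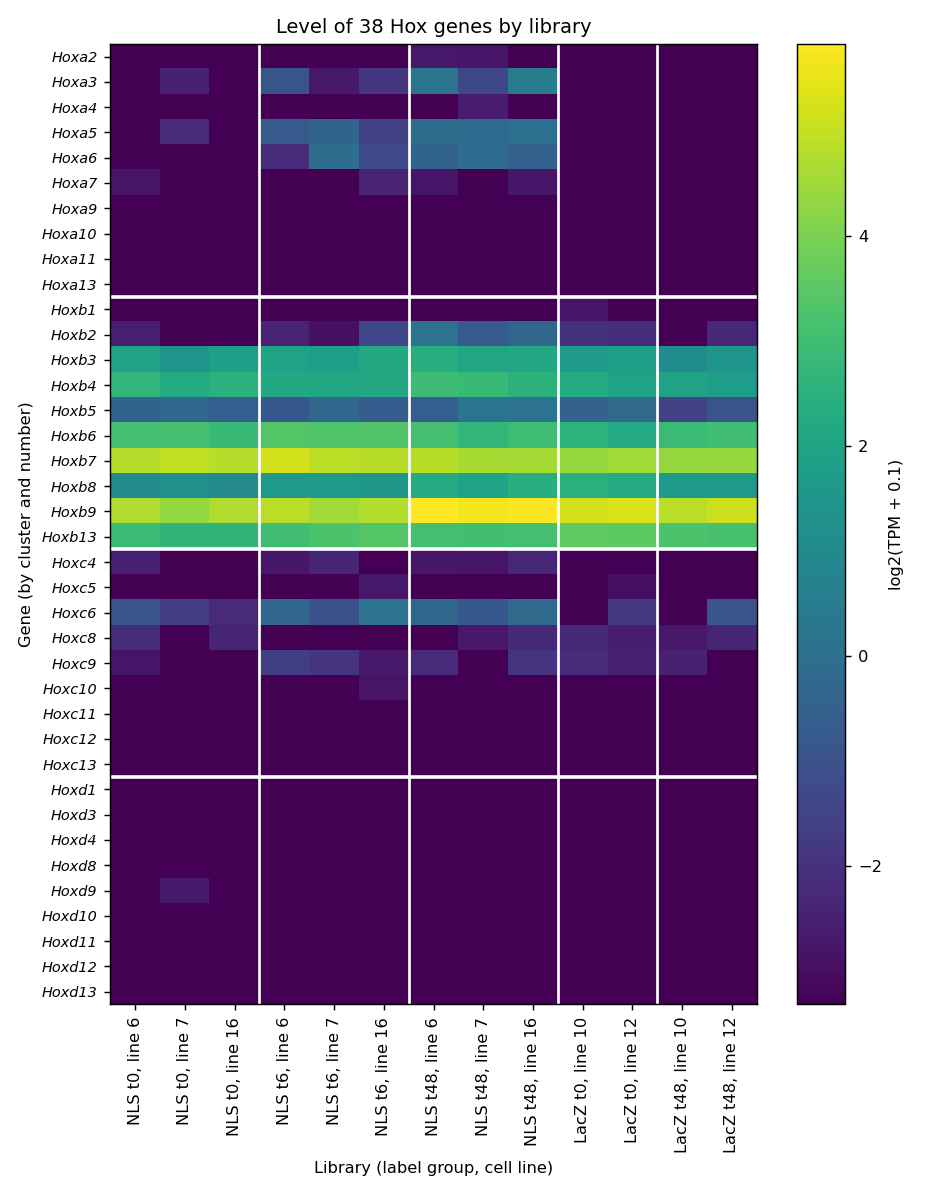
Colour shows log2(TPM + 0.1) of each of the 38 Hox genes (vertical axis, by cluster and number) in each of the 13 libraries (horizontal axis, by label group and cell line). The bright rows are HoxB genes in every library, the HoxD block holds 1 read, and rows of HoxA brighten from NLS t0 to NLS t48.

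Within HoxB the levels did not follow gene number. By mean TPM over the 13 libraries, Hoxb9 led with 35.2 (20.9 to 56.8), followed by Hoxb7 with 26.7 (20.9 to 36.5). These are central and posterior genes, active in the trunk of the embryo. Hoxb9 was above Hoxb7 in 7 of 13 libraries, namely the 3 NLS t48 and all 4 LacZ libraries, and below it in all 6 NLS t0 and t6 libraries. Hoxb13, the most posterior member, lies apart from the rest of the cluster and came next with 8.81 (6.24 to 11.8). Hoxb6 had 7.999 (4.74 to 10.4), and these neighbours were not separated beyond their spread, with Hoxb13 above Hoxb6 in 8 of 13 libraries. Hoxb4 had 5.14 (3.44 to 7.63), Hoxb3 3.61 (2.08 to 5.20) and Hoxb8 3.49 (1.90 to 5.56), and Hoxb3 was above Hoxb8 in 8 of 13. Hoxb5 followed with 0.647 TPM (0.248 to 1.04), although its neighbours on both sides were higher. For Hoxb5, 80.0% of the reads were assigned to a transcript annotated as a retained intron. The anterior members Hoxb2 (0.240 TPM) and Hoxb1 (1 read in all, in LacZ line 10 at t0) were low or nearly silent.

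Outside HoxB the highest means were 0.426 TPM for Hoxc6, 0.317 for Hoxa5, 0.266 for Hoxa3 and 0.259 for Hoxa6. Hoxc9, Hoxc8 and Hoxc4 had 0.0800, 0.0529 and 0.0312 TPM, and the remaining members with reads lay lower. For Hoxa3, 79.5% of reads were assigned to a long transcript (chromosome 6, 52169062 to 52213115) whose span includes Hoxa4, Hoxa5 and Hoxa6. Exonic bases shared between members were found for Hoxc5 with Hoxc10 (166) and Hoxd3 with Hoxd4 (388), and values of those genes are uncertain for that reason.

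The Hox total and the HoxA share were highest in the NLS t48 libraries, as a description. The summed TPM of the 38 genes was 80.6 ± 3.1 at NLS t0, 92.2 ± 5.9 at t6 and 116.6 ± 8.1 at t48 (SD, n = 3), and 92.0 ± 1.3 at LacZ t0 and 80.2 ± 4.9 at LacZ t48 (SD, n = 2). HoxA reads numbered 1.67 ± 2.1 a library at NLS t0, 16.3 ± 2.9 at t6 and 32 ± 1.7 at t48, against none in any LacZ library. The HoxA share of Hox TPM was 0.0972% ± 0.130, 1.25% ± 0.50 and 2.19% ± 0.34 at the 3 NLS times. No test was made of these sums.

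Hoxa3, Hoxa5 and Hoxa6, near 0 at NLS t0, had reads in all 3 lines at the labelled t48. Hoxa5, which acts in the neck and upper trunk, had 0, 2 and 0 reads at NLS t0 (lines 6, 7 and 16), 8, 10 and 4 at t6, 14, 14 and 13 at t48, and none in any LacZ library. All t6 and t48 libraries were above all t0 libraries. Hoxa3, a hindbrain and pharyngeal patterning gene, had 0, 2 and 0 reads at NLS t0, 9, 1 and 4 at t6, 12, 7 and 12 at t48, and none in LacZ. Hoxa6 had none at NLS t0, 1, 7 and 3 at t6, 6, 8 and 5 at t48, and none in LacZ. These are a few reads a library, and Hoxa3, Hoxa5 and Hoxc6 passed the low-count filter only through NLS t6 and t48 libraries, where they were high. Their calls are favoured by that selection and are given as a description, and counts of called members are given over the 8 HoxB genes, which had 12 or 13 of the 13 libraries over the filter's level.

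**Figure D2:**
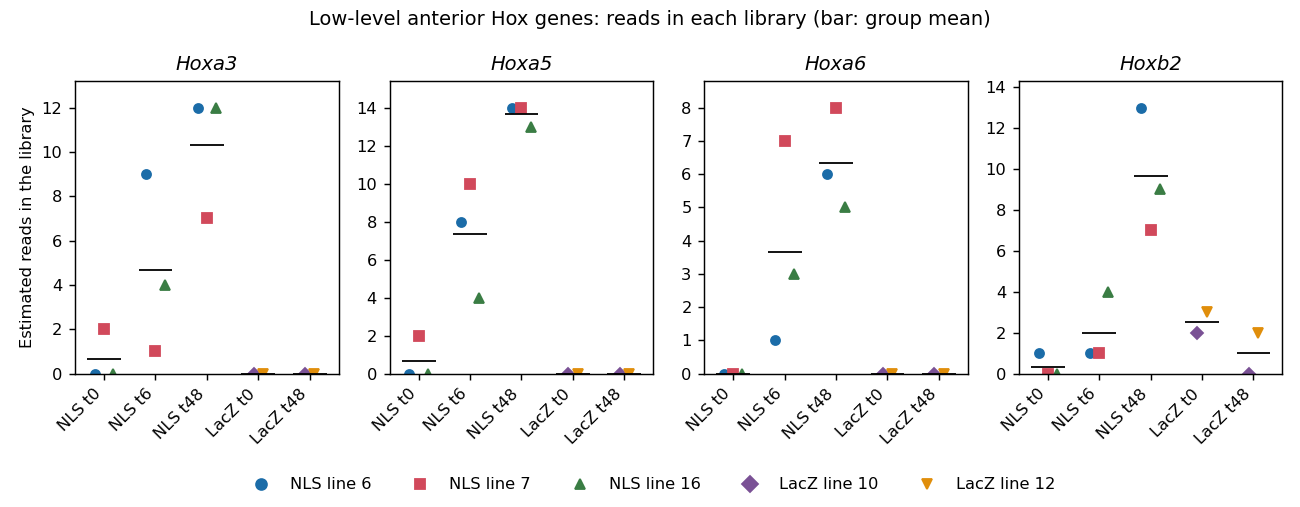
Estimated reads (vertical axis, linear from 0) of Hoxa3, Hoxa5, Hoxa6 and Hoxb2 in each library, by label group (horizontal axis), with 1 symbol per cell line and a bar at the group mean. For Hoxa5 the NLS t48 libraries sit at 13 or 14 reads, above the 0 to 2 of NLS t0, and all LacZ libraries are at 0.

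Pooled over the 3 lines, NLS t48 against t0 gave ratios of 21.7 for Hoxa5 (exact 95% interval 5.65 to 186) and 16.4 for Hoxa3 (4.18 to 142). These intervals cover counting error only, and reads are not independent molecules. Hoxa6 was at least 2.22-fold higher at t48 than at t0, with t0 set at a floor of 3 reads a library. At t6 the ratios to t0 were 11.7 for Hoxa5 (2.88 to 103) and 7.44 for Hoxa3 (1.71 to 67.5). Hoxb2, an anterior HoxB gene of the hindbrain, had 1, 0 and 0 reads at NLS t0, 1, 1 and 4 at t6 and 13, 7 and 9 at t48, a pooled ratio of 30.8 (5.10 to 1256) to t0. In LacZ it had 2 and 3 reads at t0 and 0 and 2 at t48. Hoxa6 and Hoxb2 did not pass the low-count filter and were not tested. The other HoxA genes with reads stayed at a few, with 2 reads in all for Hoxa2, 1 for Hoxa4 and 5 for Hoxa7.

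In the libraries labelled NLS t6 against t0, 2 of the 8 tested HoxB genes were called higher (edgeR adjusted p below 0.05) and none lower. Over all 13044 tested genes 20.8% were called, 11.6% as higher. The median log2 fold change of the 8 HoxB genes was 0.10 against 0.00 over all genes. Hoxb13 lay at 9.78, 8.03 and 8.24 CPM at t0 and 10.3, 12.1 and 13.8 CPM at t6 (lines 6, 7 and 16). All t6 values exceeded all t0 values, by little in line 6, and the log2 fold change was 0.47 (SE 0.12, edgeR adjusted p = 0.0115). Hoxb8, a trunk gene also known from haematopoietic cells, lay at 2.79, 3.27 and 2.73 CPM at t0 and at 4.17, 4.10 and 3.99 CPM at t6. The groups did not overlap, as in 34.4% of tested genes, and the log2 fold change was 0.48 (SE 0.15, edgeR adjusted p = 0.0396). Hoxa5 (log2 fold change 3.32, SE 0.84, edgeR adjusted p = 0.0157) was called too, having entered the test through NLS t6 and t48 libraries alone. Hoxb9, in contrast, was at 43.1, 32.5 and 42.0 CPM at t0 and 45.8, 36.3 and 41.8 CPM at t6, with no call (0.08, SE 0.11, edgeR adjusted p = 0.696). Hoxb4 averaged 5.43 ± 0.11 CPM in the t6 libraries and 6.86 ± 1.12 CPM in those at t0 (SD, n = 3), also with no call (-0.34, SE 0.16, edgeR adjusted p = 0.146).

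None of these 3 calls at t6 was made in every alternative. Fitted on the 6 libraries compared alone, neither Hoxb13 (edgeR adjusted p = 0.0555) nor Hoxb8 (0.0725) was called, and Hoxa5 did not pass the low-count filter there. Without line 16 none was called either (edgeR adjusted p = 0.0617 for Hoxa5, 0.186 for Hoxb13 and 0.197 for Hoxb8), and without line 6 Hoxb13 alone was (0.169 for Hoxa5 and 0.254 for Hoxb8).

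In the libraries labelled NLS t48 against t0, 2 of the 8 tested HoxB genes, Hoxb8 and Hoxb9, were called higher and none lower, where 26.1% of all tested genes were called and 14.8% were called higher. Hoxb9 rose 2.13-fold. It stood at 43.1, 32.5 and 42.0 CPM at t0 and at 88.8, 76.4 and 84.9 CPM at t48 (lines 6, 7 and 16). The groups did not overlap, as in 40.5% of tested genes, and lines 6, 7 and 16 gave ratios of 2.06, 2.35 and 2.02. The log2 fold change was 1.09 (SE 0.11, edgeR adjusted p = 1.73e-05). Hoxb8 rose from 2.79, 3.27 and 2.73 CPM to 6.78, 5.29 and 6.96 CPM, with a log2 fold change of 1.11 (SE 0.15, edgeR adjusted p = 0.000113). Its rise was smallest in line 7, at 1.61-fold, against 2.43-fold in line 6 and 2.55-fold in line 16.

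Hoxa5 and Hoxa3, which had no NLS t0 or LacZ library over the filter's level, were called as well, with log2 fold changes of 4.20 for Hoxa5 (SE 0.77, edgeR adjusted p = 0.00200) and 3.81 for Hoxa3 (SE 0.94, edgeR adjusted p = 0.0113). Fitted with no filter on low counts, both were called too (edgeR adjusted p = 0.000443 for Hoxa5 and 0.00457 for Hoxa3). That fit used the same reads, so it is no separate support for these calls. The other HoxB genes differed less. Hoxb13 (0.33, SE 0.12, edgeR adjusted p = 0.0506) and Hoxb7 (-0.22, SE 0.09, edgeR adjusted p = 0.1005) were not called, but were with the cell line as replicate block (edgeR adjusted p = 0.0239 and 0.0479). Hoxb3 (0.41, SE 0.20), Hoxb4 (0.29, SE 0.15), Hoxb5 (0.34, SE 0.31) and Hoxb6 (-0.04, SE 0.14) did not pass. The median over the 8 tested HoxB genes was 0.34, against -0.01 over all tested genes. Hoxc6, the leading HoxC gene, had 7, 3 and 2 reads at t0 and 11, 7 and 12 at t48 and was not called (1.40, SE 0.74, edgeR adjusted p = 0.187). Leaving out line 6 ended the call of Hoxa5 (edgeR adjusted p = 0.0506) and dropped Hoxa3 from the tested genes, leaving 2 members called. That fit called 1592 of all 12889 tested genes, against 3402 of 13044 in the fit with all lines.

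Between the labelled t6 and t48 the order of events differed by gene. Of the 8 tested HoxB genes 3 were called higher and 1 lower at t48 than at t6, against 28.2% of all genes called, 14.6% as higher and 13.6% as lower. No other member was called. Hoxb9, not called between t0 and t6, was higher at t48 (log2 fold change 1.01, SE 0.11, edgeR adjusted p = 2.74e-05), and its groups did not overlap, as in 42.8% of tested genes. Hoxb8 went up further (0.63, SE 0.14, edgeR adjusted p = 0.00513). Hoxb4, a gene of the hindbrain and upper trunk, was at 5.38, 5.34 and 5.56 CPM at t6 and 9.23, 8.71 and 7.12 CPM at t48 (0.62, SE 0.15, edgeR adjusted p = 0.00807). Hoxb4 thus lay lowest at t6, and its t48 values overlapped those of t0 (7.97, 5.72 and 6.90 CPM). Hoxb7, a trunk gene, fell by 0.28 on the log2 scale (SE 0.09, edgeR adjusted p = 0.0355), from 19.4, 16.9 and 16.9 CPM to 16.2, 13.7 and 13.9 CPM. Hoxa5 (0.87, SE 0.52) and Hoxa3 (1.15, SE 0.68) did not pass. The Hoxb7 call was lost in 10 of 15 alternative fits, among them DESeq2 (adjusted p = 0.0506), the fit without the NLS t6 library of line 6 (edgeR adjusted p = 0.142) and those without the NLS t48 library of line 7 (edgeR adjusted p = 0.121) or line 16 (edgeR adjusted p = 0.109). Without line 6 only the Hoxb9 call remained of the 4, with an edgeR adjusted p of 0.094 for Hoxb4, 0.0729 for Hoxb8 and 0.0795 for Hoxb7.

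**Figure D3:**
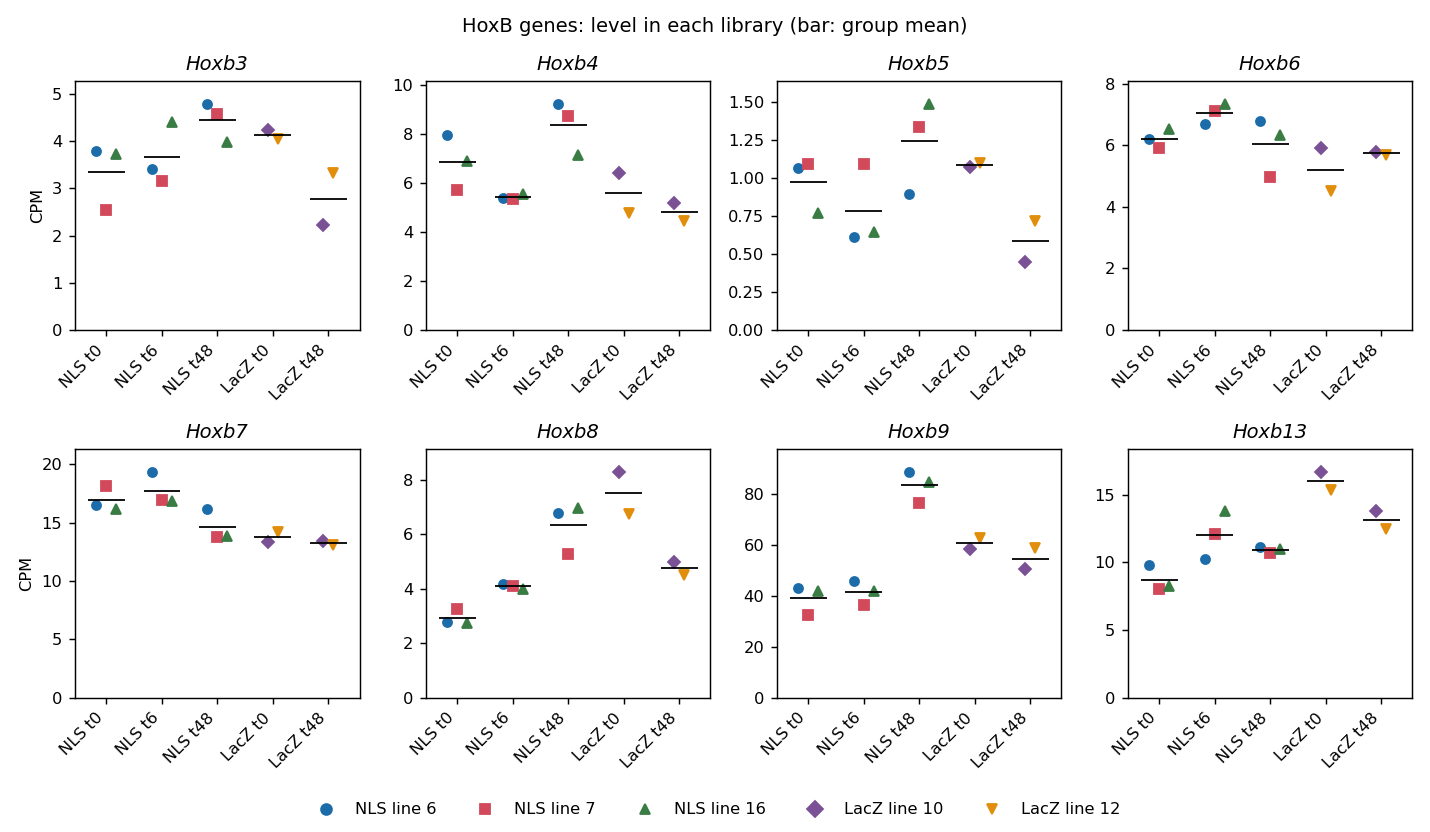
CPM (vertical axis, linear from 0, own scale for each gene) of the 8 tested HoxB genes in each library, by label group (horizontal axis), with 1 symbol per cell line and a bar at the group mean. Hoxb9 at NLS t48 lies between 76.4 and 88.8 CPM, above every other library, while Hoxb7 reaches at most 19.4 CPM in any library.

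The LacZ lines, the control lines of the series, moved otherwise over the same labels. At LacZ t48 against t0, 1 of the 8 tested HoxB genes was called, as lower, where 18.5% of all tested genes were called, 8.68% as higher and 9.87% as lower. Hoxb8 was at 8.31 and 6.74 CPM at t0 and 5.002 and 4.50 CPM at t48 (lines 10 and 12), a fall by 0.66 on the log2 scale (SE 0.18, edgeR adjusted p = 0.0189). The groups did not overlap, as in 61.3% of tested genes. Hoxb9 was at 58.3 and 62.9 CPM at t0 and 50.4 and 58.8 CPM at t48, with no call (-0.15, SE 0.14, edgeR adjusted p = 0.501). Hoxb13 (-0.28, SE 0.14), Hoxb3 (-0.57, SE 0.25) and Hoxb5 (-0.89, SE 0.42) did not pass, and 7 of the 8 HoxB genes had a negative estimate, with a median of -0.25 against 0.00 over all tested genes. Hoxb6 was the exception (0.14, SE 0.17). With 2 lines, the Hoxb8 call was lost without either line (edgeR adjusted p = 0.234 without line 10 and 0.121 without line 12), and also without the LacZ t0 library of line 10 (0.161) or the LacZ t48 library of line 10 (0.062) or line 12 (0.122).

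The difference between the NLS and the LacZ change from t0 to t48 was tested as an interaction. Of the 8 tested HoxB genes 4 had a higher change in NLS and none a lower one, against 23.3% of all genes called and 12.1% as higher. Hoxb8 differed by 1.77 on the log2 scale (SE 0.23, edgeR adjusted p = 0.000142), its NLS libraries going up and its LacZ libraries down. Hoxb9 differed by 1.24 (SE 0.18, edgeR adjusted p = 0.000371). Hoxb13 (0.62, SE 0.18, edgeR adjusted p = 0.0254) and Hoxb3 (0.98, SE 0.32, edgeR adjusted p = 0.0427) were called although neither change was called within LacZ, nor within NLS without the block. The NLS change of Hoxa3 and Hoxa5 could not be set against one in LacZ, which had no reads at either time. The Hoxb3 call was lost in 11 of 21 alternative fits, with edgeR adjusted p of 0.116, 0.0915, 0.315 and 0.0618 without lines 6, 7, 10 and 12. The Hoxb13 call was lost in 8 of 21, with 0.0596, 0.0664, 0.135 and 0.136 without lines 7, 16, 10 and 12.

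At the labelled t0 the NLS and LacZ lines already differed in some HoxB genes. In NLS t0 against LacZ t0, 1 of the 8 tested HoxB genes was called higher and 3 lower, where 43.5% of all tested genes were called, 21.1% higher and 22.4% lower. The count in either direction was thus near the share over all genes. Hoxb8 was at 2.79, 3.27 and 2.73 CPM in NLS and at 8.31 and 6.74 CPM in LacZ, lower by 1.36 on the log2 scale in NLS (log2 fold change -1.36, SE 0.16, edgeR adjusted p = 1.55e-05). Hoxb13 was at 9.78, 8.03 and 8.24 CPM against 16.7 and 15.3 CPM (-0.88, SE 0.13, edgeR adjusted p = 7.89e-05). Hoxb9 was at 43.1, 32.5 and 42.0 CPM against 58.3 and 62.9 CPM (-0.63, SE 0.13, edgeR adjusted p = 0.00129). For these 3 genes the groups did not overlap, as in 62.1% of tested genes. Hoxb7 was slightly higher in NLS (0.30, SE 0.10, edgeR adjusted p = 0.0302), with 16.6, 18.2 and 16.2 CPM against 13.3 and 14.2 CPM. The 3 lower genes are the highest-numbered of the cluster, and no member outside HoxB was called. The Hoxb7 call was lost without line 7 (edgeR adjusted p = 0.0853), line 10 (0.17) or line 12 (0.0773), and without the t0 library alone of each of these lines (0.0876, 0.172 and 0.0696).

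At the labelled t48 no HoxB gene was called lower in NLS than in LacZ. In NLS t48 against LacZ t48, 4 of the 8 tested HoxB genes were called higher and none lower, against 45.1% of all tested genes called and 23.0% called higher. Here too the count in either direction was near the share over all genes. The estimate had the other sign than at t0 for Hoxb3, Hoxb5, Hoxb8 and Hoxb9 and the same sign for Hoxb4, Hoxb6, Hoxb7 and Hoxb13. Hoxb9 was at 88.8, 76.4 and 84.9 CPM in NLS and at 50.4 and 58.8 CPM in LacZ (log2 fold change 0.61, SE 0.13, edgeR adjusted p = 0.00157). Hoxb4 was at 9.23, 8.71 and 7.12 CPM against 5.17 and 4.45 CPM (0.80, SE 0.18, edgeR adjusted p = 0.00239). Hoxb3, a hindbrain gene, was at 4.80, 4.58 and 3.98 CPM against 2.22 and 3.33 CPM (0.68, SE 0.23, edgeR adjusted p = 0.0291). Hoxb5 was at 0.894, 1.33 and 1.49 CPM against 0.445 and 0.716 CPM (1.07, SE 0.38, edgeR adjusted p = 0.0352). None of these groups overlapped, as in 65.1% of tested genes, and these 4 were the HoxB genes called.

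Hoxa3 and Hoxa5 were called in the same comparison against LacZ libraries with no reads, so their differences are bounds at a floor of 3 reads a library. Hoxa5 was at least 4.10-fold higher in NLS t48 and Hoxa3 at least 3.15-fold, while the untested Hoxa6 was at least 1.88-fold higher. Hoxb8 (0.41, SE 0.16, edgeR adjusted p = 0.0523) and Hoxb13 (-0.27, SE 0.13, edgeR adjusted p = 0.105), both called at t0, were not called at t48. Hoxb8 was called there with RLE normalization (edgeR adjusted p = 0.0499), without line 7 (0.0183) and without its t48 library alone (0.0185). The Hoxb5 call was lost in 10 of 14 alternative fits, among them DESeq2 (adjusted p = 0.0681) and those without lines 7, 16, 10 or 12 (edgeR adjusted p = 0.065, 0.105, 0.263 and 0.0605). The Hoxb3 call was lost in 5 of 15, among them the fits without line 10 (edgeR adjusted p = 0.294) and line 6 (0.107). The comparisons share libraries, and their values are not independent of each other.

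**Figure D4:**
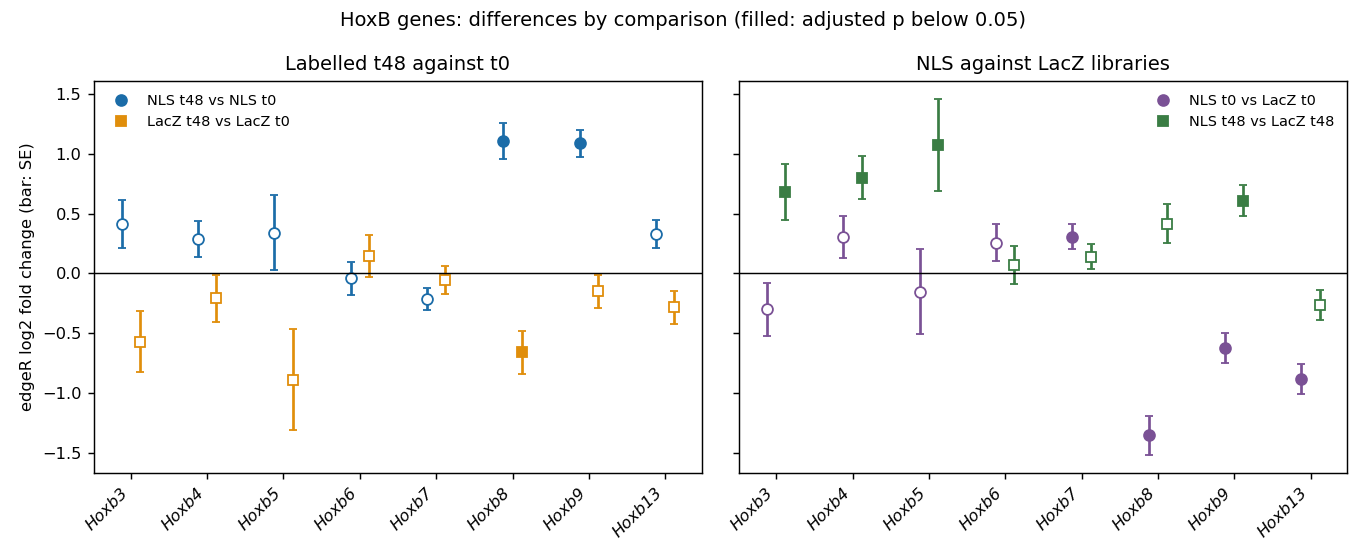
Log2 fold changes from edgeR (vertical axis, bars are SE) of the 8 tested HoxB genes (horizontal axis, by gene number), for t48 against t0 within NLS and within LacZ (left) and for NLS against LacZ at each of those labels (right). Filled symbols passed an adjusted p of 0.05. Hoxb8 and Hoxb9 are the HoxB genes called at NLS t48 against t0, at 1.11 and 1.09, and both are below 0 for NLS t0 against LacZ t0.

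The cell lines were also compared with each other. Line 6 against line 16 gave 0 called members of 11 by edgeR and by DESeq2 (0 also at an unadjusted p below 0.05), where 2.26% of all tested genes were called, 0.882% as higher and 1.38% as lower. The log2 differences of the 8 HoxB genes between these lines lay between -0.13 and 0.19. Hoxb9 was lower in line 7 than in line 16 (log2 fold change -0.23, SE 0.05, edgeR adjusted p = 0.00510) and than in line 6 (-0.31, SE 0.05, edgeR adjusted p = 0.00126). It was the one member called of 11 in each comparison, against 22.6% and 11.1% of all tested genes (10.8% and 5.19% as lower), counts too small to set apart from these shares, and line 7 had the lowest Hoxb9 level of the 3 lines at each labelled time. Line 12 against line 10 gave 0 called members by edgeR and by DESeq2 (2 at an unadjusted p below 0.05), where 0.123% of all tested genes were called, 0.092% as higher and 0.0307% as lower. The line comparisons kept the time label as a term. Each line gave 1 library at a time, so a line's libraries of different time labels stood in as its replicates. The p-values there measure the spread between those libraries after the time terms, not between replicates of a line. Without the time term the Hoxb9 calls were lost (edgeR adjusted p = 0.946 against line 16). That fit called only 9 of all 13044 tested genes for line 7 against line 16 and 0 for line 7 against line 6. With the term kept, the first call was lost without the t0 library of line 7 or of line 16 (edgeR adjusted p = 0.0553 and 0.053).

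Of the genes that act with Hox proteins or on their clusters, all 9 TALE cofactor genes were tested. At NLS t48 against t0, 4 were called higher and 1 lower, where 14.8% of all tested genes were called higher and 11.3% lower. Meis3 was called higher at t48 (log2 fold change 0.41, SE 0.08, edgeR adjusted p = 0.00261), but not when protein-coding transcripts alone were summed (0.03, edgeR adjusted p = 0.928). Pknox1 was lower at t48 (-0.24, SE 0.07, edgeR adjusted p = 0.0228), a call lost without any of the lines (edgeR adjusted p = 0.111, 0.102 and 0.105 without lines 6, 7 and 16).

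Of 28 Polycomb genes tested, 5 were called higher and 2 lower at NLS t6 against t0, where 11.6% of all tested genes were called higher and 9.23% lower, so the count was near the share over all genes. Ezh2, the main H3K27 methyltransferase, was at 50.9 ± 3.2 CPM at t0, 66.7 ± 2.0 at t6 and 51.4 ± 1.6 at t48 (t6 against t0 0.39, SE 0.06, edgeR adjusted p = 0.000391), and its partner Eed was called higher at t6 too (0.42, SE 0.07, edgeR adjusted p = 0.00147). Of the 2 called lower at t6, 1 was the PRC2 accessory gene Phf1 (-0.44, SE 0.10, edgeR adjusted p = 0.0097). At t48, 4 were called higher and 4 lower against t0, again near the 14.8% and 11.3% over all tested genes. The higher ones included the Polycomb reader gene Cbx2 (0.38, SE 0.08, edgeR adjusted p = 0.00428). The lower ones included the PRC2 accessory genes Phf19 (-0.50, SE 0.07, edgeR adjusted p = 0.000131) and Phf1 (-0.45, SE 0.10, edgeR adjusted p = 0.00665). Leaving out line 16 ended the call of Cbx2 (edgeR adjusted p = 0.07), and leaving out line 6 that of Phf1 (0.126).

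Trithorax and activator genes gave 4 higher and 2 lower of 15 at NLS t48 against t0, beside 14.8% higher and 11.3% lower over all tested genes. Kmt2b, an H3K4 methyltransferase gene, was higher at t6 (0.50, SE 0.06, edgeR adjusted p = 0.000143) and at t48 (0.46, SE 0.06, edgeR adjusted p = 0.000185), and Kdm6b, which encodes a demethylase of H3K27, was higher at t48 (0.53, SE 0.10, edgeR adjusted p = 0.00151). Dpy30, a shared subunit of these methyltransferases, was lower (-0.33, SE 0.06, edgeR adjusted p = 0.00201).

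Retinoic acid is a classical inducer of anterior Hox genes, and 11 of the 20 genes of its pathway and of the Cdx family were tested. At NLS t48 against t0, 1 was called higher and 3 lower, beside 14.8% and 11.3% over all tested genes. The 1 called higher was Cyp26b1, which encodes an enzyme that breaks retinoic acid down, so it went the other way from the 3 other calls. Its level was 2.01 CPM at LacZ t0 and 0.592 at LacZ t48. In NLS it was at 0.299 CPM at t0, 0.584 at t6 and 1.0955 at t48 (t48 against t0 1.85, SE 0.42, edgeR adjusted p = 0.00538). That call was lost without line 6 (edgeR adjusted p = 0.108). Rarb, a retinoic acid receptor gene, was at 13.3 CPM at NLS t0 against 1.31 at LacZ t0 (3.33, SE 0.21, edgeR adjusted p = 3.64e-08), a difference between the lines at the labelled t0. Cdx2 and Cdx4, whose products activate posterior Hox genes in the embryo, had no reads in any library.

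Of 28 other positional factors 13 were tested, and 5 were called higher and 1 lower at NLS t48 against t0, beside 14.8% and 11.3% over all tested genes. Alx1, a craniofacial homeobox gene, was at 7.52 CPM at NLS t0, 18.5 at t6 and 16.4 at t48 (t48 against t0 1.13, SE 0.10, edgeR adjusted p = 3.57e-06). Emx2, a forebrain and urogenital homeobox gene, was at 5.55 CPM at NLS t0 and 0.180 at LacZ t0 (4.89, SE 0.27, edgeR adjusted p = 7.03e-09).

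Of the 24 nearest protein-coding genes next to the clusters (3 on each side of each) 19 were tested, and 3 were called higher and 1 lower at NLS t48 against t0, near the 14.8% and 11.3% over all tested genes, with a median log2 fold change of -0.03 against -0.01 over all tested genes. None of the 3 tested neighbours of HoxB was called there. In other comparisons some were, among them 2 as lower in the interaction (11.2% of all tested genes). At NLS t0 against LacZ t0, 2 were called higher (21.1% of all), and at LacZ t48 against t0, 1 was (8.68% of all). Of the 5 tested neighbours of HoxA, Skap2, an adaptor gene, was higher at NLS t48 against t0 (0.27, SE 0.07, edgeR adjusted p = 0.0133). Evx1, the homeobox gene at the end of HoxA, had no reads in any library. Of 43 annotated genes inside the clusters that are not protein coding, 1 pseudogene was in the tables, and the others were not analysed here.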

How the data were processed

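Libraries were stranded paired-end mRNA libraries from Trizol RNA, per the labels' protocols. The submitters' processing notes name Salmon 1.2.0 and GRCm38; for the transcript set and options, nothing is given in the sources used here. The deposited tables hold estimated counts and TPM per transcript. Salmon divides reads among the transcripts that fit them, so values of overlapping transcripts depend on its model.

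Of 116546 transcripts, 115977 (99.51%) matched the GENCODE annotation of GRCm38 by identifier. Summing over 35498 genes gave rounded gene counts, and the deposited TPM values were summed likewise. Unmatched transcripts held 0.121 to 0.165% of the reads and were left out. The test was edgeR's quasi-likelihood F-test (edgeR 4.0.16, R 4.3.3; TMM, the edgeR low-count filter with a minimum count of 10, robust) in 1 fit over 13 libraries with 5 group means. The filter kept 13044 genes, needed about 0.481 CPM in at least 2 libraries, and p-values were Benjamini-Hochberg adjusted over them and called below 0.05. Line comparisons used cell line terms with NLS t6, NLS t48 and LacZ t48 terms. Standard errors come from the fold change and the F statistic. Ratios of pooled reads have exact 95% conditional binomial intervals, and bounds use a floor of 3 counts a library. At these depths 3 counts are 0.131 to 0.167 CPM.

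Libraries could be paired by cell line number, which the labels give to each line. The tests between label groups did not use this pairing, except in the alternative with the cell line as replicate block. Deviations from group means correlated at r = 0.025 to 0.282 over 9 same-line pairs of NLS libraries and at r = -0.263 to 0.052 over 18 other pairs, across genes. In LacZ the same-line value was -0.020 and that of the other pairs 0.020. Deviations from a group mean cancel out over its lines. The values of same-line and other pairs are therefore not independent of each other, and with 2 lines they mirror each other.

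Alternatives were RLE normalization, no filter, protein-coding transcripts only, DESeq2 1.42.0, the libraries compared alone, the cell line as replicate block, no time term, and leaving out each library or line. The members, gene lists and comparisons were chosen with earlier results of these data known. All Hox genes with a call or a mean of at least 1 CPM could be named, and of other lists at most 2 genes higher and 2 lower by smallest p for each comparison, the gene with the smallest p where none passed, and the most abundant. In all, 1 Hox gene and 3 genes of the other lists are not reported here; the counts over Hox genes leave the first out, and those over the lists keep the others. Genes with fewer reads named here (Hoxa6, Hoxb2 and the low HoxA and HoxC genes, and the unexpressed Cdx2, Cdx4 and Evx1) were named to account for every member or after their values were seen.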

Additional observations from a re-analysis of the deposited data

Results flagged for a closer look

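The change from t0 to t48 differed between the NLS and the LacZ lines for 4 Hox genes by edgeR's interaction test, which is what singled them out. The NLS change exceeded the LacZ change on the log2 scale by 1.77 for Hoxb8, 1.24 for Hoxb9, 0.98 for Hoxb3 and 0.62 for Hoxb13. For Hoxb8 every NLS line moved up, by 1.28, 0.69 and 1.35 in lines 6, 7 and 16, and both LacZ lines moved down, by -0.73 and -0.58 in lines 10 and 12. For Hoxb9 the NLS lines moved by 1.04, 1.23 and 1.01 and the LacZ lines by -0.21 and -0.10. For Hoxb13 they moved by 0.19, 0.41 and 0.42 in NLS and by -0.27 and -0.30 in LacZ. For Hoxb3 they moved by 0.34, 0.85 and 0.09 in NLS and by -0.93 and -0.28 in LacZ. Groups of 2 or 3 libraries were not examined for single libraries that stand apart.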

How the results depend on the processing

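Of 28 calls of the Hox genes described over all comparisons, 13 were kept in every alternative fit that tested the gene, 15 were lost in at least 1, and 0 reversed. Kept throughout were Hoxb9 in each comparison between label groups where it was called, Hoxb8 at NLS t48 against t0, at NLS t0 against LacZ t0 and in the interaction, Hoxb13 at NLS t0 against LacZ t0, and Hoxb4 at NLS t48 against LacZ t48. The other 3 were Hoxa3 at NLS t48 against t0 (tested in 9 of 15 fits) and against LacZ t48 (10 of 15), and Hoxa5 against LacZ t48; both genes entered the test only through NLS t6 and t48 libraries, so these 3 are a description. The counts that follow include any such gene. With the libraries compared alone, 0 members were called at NLS t6 against t0, where 1858 of all 12292 tested genes were called. Without a time term, 0 were called between line 7 and line 16 and between line 7 and line 6, where 9 and 0 of all 13044 tested genes were called. Leaving out 1 NLS library or line gave 0 to 4 called members at NLS t6 against t0 (994 to 2817 of all tested genes). It gave 2 to 5 at NLS t48 against t0 (1592 to 3076) and 1 to 4 at NLS t48 against t6 (2034 to 3333). In the interaction it gave 2 to 4 (1810 to 3176). At NLS t0 against LacZ t0 it gave 3 to 4 (4489 to 5687). At NLS t48 against LacZ t48 it gave 4 to 6 (4762 to 5966). For line 7 against line 16, leaving out a library of either line gave 0 to 1 (1503 to 2474). For line 7 against line 6 such fits gave 1 each (596 to 1279). Fits without a LacZ library or line leave 1 LacZ library at a label, and their counts are not given. With the cell line as replicate block the counts were 3, 6, 4 and 1 for NLS t6 against t0, t48 against t0, t48 against t6 and LacZ t48 against t0, and 4 for the interaction. In the same order that fit called 4527, 5188, 5373 and 4308 of all 13044 tested genes, and 4875 in the interaction. The block added Hoxb7 and Hoxb13 at NLS t48 against t0 and changed no other call of a Hox gene. No paired analysis was possible for NLS against LacZ because no line belongs to both. The causes of lost calls were not tested. Where a line left out leaves LacZ with 1 library a time, that library is assumed to vary like the other groups. Depth limits the HoxA genes, Hoxb2 and the HoxC genes, with at most 16 reads a library.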
